A study of Mus musculus with 9 samples.

Results

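Plet1, Car4, Mcemp1, Nov, Rbp4, Slc39a2, Slc7a2, Krt19, Krt79 and Kcnip4 were described as genes of alveolar macrophage type that were particular to macrophages grown with GM-CSF. These 10 genes, each matched by its symbol to 1 of the 46078 genes measured, were selected on their measured FPKM levels, near 0 in both other macrophage cultures, or as known genes of alveolar macrophages. Since those levels chose them, they are given below as a description without a test. RNA of cultured macrophages from C57BL/6J mice, an inbred laboratory strain, was sequenced in 9 libraries, 3 for each culture. FLM_G were fetal liver macrophages, taken at gestational day 15 to 19, that were grown with 30 ng/ml of recombinant mouse GM-CSF and 10% fetal bovine serum. FLM_M came from fetal liver of the same stage and were grown with 20% fetal bovine serum and 30% L-cell supernatant, which carries M-CSF. BMM were macrophages from bone marrow, whose medium the labels do not describe. All cells had spent at least 8 weeks in culture, and FLM_G and FLM_M differ in growth factor and serum together, which cannot be told apart. FLM_G and BMM differ in organ of origin, and whether their media differ is not known from the labels. The 3 libraries of a culture came from wells plated in triplicate, and p-values below measure only the spread between such wells, which may be technical.

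GM-CSF is the growth factor that fetal monocytes need in the lung to become alveolar macrophages. Its receptor, built from the products of Csf2ra and Csf2rb, signals through JAK2 and STAT5, and the nuclear receptor PPARG is one of the factors needed for the alveolar macrophage state. Car4, Plet1 and Krt79 have been used as marker genes of mouse alveolar macrophages, and Plet1 and the keratins are otherwise known from epithelia.

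Levels are FPKM (read fragments divided by transcript length and sequencing depth) scaled between libraries by TMM factors of 0.80 to 1.14. The smallest steps in the values put the depth at 28380000 to 31150000 reads in FLM_G, 30850000 to 35470000 in FLM_M and 31270000 to 34720000 in BMM. All 8 macrophage markers were present in every culture, among them Csf1r at 119 ± 4.66 in FLM_G, 433 ± 28.3 in FLM_M and 368 ± 7.61 in BMM (SD, n = 3 each). Xist, which is transcribed from the inactive X chromosome, averaged 48.5 in FLM_G, 70.9 in FLM_M and 0.0020 in BMM, and the Y-linked gene Ddx3y averaged 0.0055, 0 and 9.20 in the same order. FLM_G and BMM thus differed in sex-linked expression as in organ of origin, and effects of sex and culture cannot be told apart between them.

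All 10 genes were higher in each FLM_G library than in any of the other 6 libraries, a pattern that 20.9% of the 21953 genes above 0 in any library shared and that the choice of these genes fixes. Their levels in FLM_G covered a wide range. The 4 highest exceeded 100 scaled FPKM, 4 lay between 5 and 100, and Krt79 and Kcnip4 stayed under 1. For those 2 genes the description as genes expressed in GM-CSF culture rests on few reads. The other 8 passed the filter used for testing (at least 1 FPKM in at least 3 libraries). Of the 11952 genes that passed it, 28.7% had every FLM_G library above the other 6. In bulk RNA, fewer cells with a transcript and less transcript per cell cannot be told apart.

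**Figure D1:**
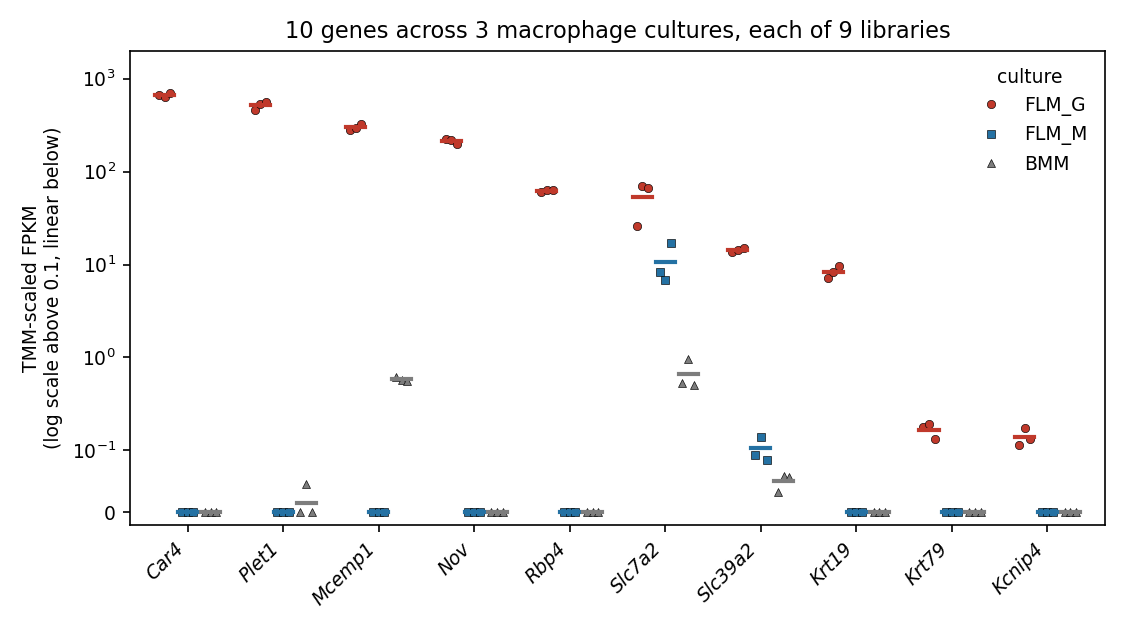
Level of each of the 10 genes (TMM-scaled FPKM, log scale above 0.1 and linear below) in the 3 libraries of FLM_G (red circles), FLM_M (blue squares) and BMM (grey triangles), with a line at each mean. Car4 to Rbp4 lie above 60 in FLM_G and below 1 in the other cultures, Slc7a2 is the gene with the highest level outside FLM_G, and Krt79 and Kcnip4 stay under 0.2.

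Stretches of promoter are shown for Car4, Plet1, Mcemp1 and Rbp4, the members with the highest levels for which a start-site window was at hand. They come from RefSeq (GRCm38.p6), run 5′ to 3′ on the strand of the gene from 250 bases before the start base to 29 after it (the start base counts as 0), and capitals mark the matches described next. The Car4 stretch is chr11:84957504-84957783 (+), that of Plet1 is chr9:50494275-50494554 (+), that of Mcemp1 is chr8:3665512-3665791 (+), and that of Rbp4, which starts at the second of its RefSeq start sites, is chr19:38124782-38125061 (-).
Car4: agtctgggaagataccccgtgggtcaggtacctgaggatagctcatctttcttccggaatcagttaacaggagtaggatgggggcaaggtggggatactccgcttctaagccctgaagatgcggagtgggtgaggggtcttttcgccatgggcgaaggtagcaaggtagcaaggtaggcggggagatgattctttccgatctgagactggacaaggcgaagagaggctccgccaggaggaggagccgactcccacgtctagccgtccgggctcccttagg
Plet1: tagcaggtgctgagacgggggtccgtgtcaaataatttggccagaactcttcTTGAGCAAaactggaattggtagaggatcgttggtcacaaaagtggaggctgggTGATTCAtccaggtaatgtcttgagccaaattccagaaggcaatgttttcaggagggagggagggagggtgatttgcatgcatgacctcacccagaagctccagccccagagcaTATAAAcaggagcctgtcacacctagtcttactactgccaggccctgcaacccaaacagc
Mcemp1: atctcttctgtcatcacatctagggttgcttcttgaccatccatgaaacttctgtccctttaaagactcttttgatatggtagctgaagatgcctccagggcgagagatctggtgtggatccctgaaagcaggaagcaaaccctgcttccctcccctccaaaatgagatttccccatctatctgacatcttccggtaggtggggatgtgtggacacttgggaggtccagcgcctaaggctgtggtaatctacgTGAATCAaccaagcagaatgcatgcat
Rbp4: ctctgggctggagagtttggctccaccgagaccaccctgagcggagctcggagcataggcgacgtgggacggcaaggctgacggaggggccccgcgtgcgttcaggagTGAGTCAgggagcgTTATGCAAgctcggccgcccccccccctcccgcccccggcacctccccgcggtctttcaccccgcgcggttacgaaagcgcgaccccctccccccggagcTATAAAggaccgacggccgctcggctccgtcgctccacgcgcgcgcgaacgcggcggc

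For 7 of the 10 genes RefSeq gave 9 windows of 250 bases before to 50 bases after a start, and Krt19, Nov and Slc7a2 had none in the table used. Exact matches were searched on both strands for a TATA box (TATAAA), the STAT element (TTCNNNGAA), the PU.1 core (GAGGAA), the C/EBP element (TTGCNNAA), the AP-1 element (TGANTCA), the E-box (CACGTG) and the direct repeat bound by PPAR and RXR. The AP-1 letters stood in 4 of the 9 windows, 1 each of Plet1, Rbp4, Mcemp1 and Kcnip4, and in 7.81% of all 32851 windows of the table. Plet1 and Rbp4, the latter at the second of its 2 start sites, carried the same 3 elements together. The TATA box began at base -30 in Plet1 and at -28 in Rbp4. The AP-1 letters began at -144 and at -142, and the C/EBP letters, on the other strand, at -198 and at -128. The window of the other Rbp4 start site held none of the letters searched, and which start site was used in these cells was not tested. TATA boxes occurred in 13.62% and C/EBP letters in 10.8% of all windows. The Car4 window held a TATAAA only behind the start, at base 42 and outside the stretch shown, and Mcemp1 had its AP-1 match at base 3. STAT, PU.1, E-box and PPAR-RXR letters, found in 8.3%, 28.28%, 7.15% and 0.04% of all windows, were in none of the 9. A match describes letters and not a bound site, and 9 windows are too few to compare shares.

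Among the membrane and surface proteins, Car4 encodes a carbonic anhydrase that is anchored to the outer face of the cell membrane by a lipid and interconverts carbon dioxide and bicarbonate. The gene (ENSMUSG00000000805) spans 84957786 to 84966044 on the + strand of chromosome 11 (GRCm38). Its level was 664, 639 and 694 scaled FPKM in the 3 FLM_G libraries, and it was listed at 0 in all FLM_M and BMM libraries. With a mean of 665.5 ± 27.5 (SD, n = 3) it held rank 95 of all genes in FLM_G. The FPKM stand for about 19452, 19983 and 21741 reads in those libraries if the longest annotated transcript is taken as the length.

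Plet1 (ENSMUSG00000032068, chromosome 9, 50494525 to 50505482, + strand) encodes a lipid-anchored surface protein known from placenta and epithelia. It was measured at 465, 534 and 563 in FLM_G, at 0 in the 3 FLM_M libraries, and at 0, 0.045 and 0 in BMM. The single value above 0 outside FLM_G, in BMM replicate 2, corresponds to about 3 reads. Plet1 ranked 115th in FLM_G. An annotated antisense gene, Plet1os (chromosome 9, 50488795 to 50507823), covers the whole of Plet1 on the other strand, and the sources used here do not say whether the FPKM took strand into account. Plet1os reached no more than 0.333 FPKM as deposited in any library.

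Mcemp1 (ENSMUSG00000013974, chromosome 8, 3665754 to 3669259, + strand) encodes a small membrane protein named for its expression in mast cells. Its FLM_G levels were 280, 297 and 327, a mean of 301 ± 24.2, and FLM_M was listed at 0. The BMM libraries were not at 0 but at 0.616, 0.567 and 0.557, or about 32, 29 and 31 reads. The mean in FLM_G was 519 times the mean in BMM, and Mcemp1 was the only one of the 10 genes with a BMM level above FLM_M in every library. Mast cell markers did not move with it: 6 of 8, among them Cpa3, Tpsb2 and Ms4a2, were listed at 0 in all 9 libraries, and the 8 together summed to 0 to 0.032 in FLM_G, 0 to 0.015 in FLM_M and 0.038 to 0.073 in BMM.

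Of the secreted proteins, Nov, now called Ccn3, is a matricellular protein of the CCN family (ENSMUSG00000037362, chromosome 15, 54745702 to 54754039, + strand). Nov was measured at 225, 218 and 200.2 in FLM_G and listed at 0 in FLM_M and in BMM. No FLM_G library came near the 0 of the others, and the implied reads were 15035, 15592 and 14336. Its 5 relatives did not share this level. In the CCN family list no gene passed the filter, 2 of 5 were listed at 0 in all 9 libraries, and the highest single value was 0.101, of Cyr61 in a BMM library.

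Rbp4 (ENSMUSG00000024990, chromosome 19, 38116629 to 38125281, - strand) encodes the plasma carrier of retinol, which the liver secretes in a complex with transthyretin. It was the steadiest of the 10 genes, at 60.2, 64.2 and 62.9 in FLM_G, a coefficient of variation of 3.27%. In the other 6 libraries it was listed at 0. Because FLM_G came from fetal liver, hepatocyte markers were read beside it. Of 8, 6 were listed at 0 in all 9 libraries, Alb and Ttr (transthyretin) among them, and Afp, the highest of the rest in FLM_G, averaged 0.910 in FLM_G, 2.19 in FLM_M and 1.79 in BMM. The list summed to 0.790 to 1.13 in FLM_G, 2.31 to 2.94 in FLM_M and 2.14 to 2.57 in BMM.

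Both transporters were also detected outside FLM_G. Slc39a2 (ENSMUSG00000072572, chromosome 14, 51892889 to 51896745, + strand) encodes ZIP2, which imports zinc. It stood at 13.8, 14.4 and 15.0 in FLM_G, at 0.092, 0.140 and 0.085 in FLM_M, and at 0.034, 0.059 and 0.058 in BMM. The FLM_M libraries lay above the BMM libraries, but on about 9, 12 and 9 reads against 3, 5 and 5. The ratio of means was 136 over FLM_M and 286 over BMM. Mettl17 overlaps the gene on the same strand, so that reads at the overlap can have been assigned to either.

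Slc7a2 (ENSMUSG00000031596, chromosome 8, 40862396 to 40922308, + strand) encodes CAT2, an importer of arginine, lysine and ornithine. It was the member least confined to FLM_G: 25.9, 69.3 and 66.0 in FLM_G, 8.25, 6.77 and 16.9 in FLM_M, and 0.531, 0.955 and 0.502 in BMM. The order FLM_G, FLM_M, BMM held without overlap, yet FLM_G replicate 1 was closer to the highest FLM_M library than to the other 2 FLM_G libraries. The mean of 53.7 ± 24.1 in FLM_G was 5.04 times that of FLM_M and 81.0 times that of BMM. Its coefficient of variation in FLM_G, 44.9%, was the largest of the 10.

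The 2 keratins, which form intermediate filaments in epithelial cells, differed from each other in level. Krt19 (ENSMUSG00000020911, chromosome 11, 100140810 to 100148665, - strand) was at 7.22, 8.22 and 9.64 in FLM_G, on about 265, 323 and 379 reads. Krt79 (ENSMUSG00000061397, chromosome 15, 101929332 to 101940324, - strand) was at 0.178, 0.190 and 0.133, on about 10, 12 and 8 reads. Both were listed at 0 in FLM_M and BMM. Krt79 held rank 13816 of all genes in FLM_G and Krt19 rank 5254, so of this pair only Krt19 passed the filter.

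Epithelial markers were read beside the keratins and Plet1. Of 11 such genes, 6 were listed at 0 in all 9 libraries and 8 in all FLM_G libraries, among them Epcam, Krt8, Krt18 and the 3 claudins. The list summed to 24.7 to 27.1 in FLM_G, 0.0074 to 0.045 in FLM_M and 0.093 to 0.208 in BMM. Nearly all of the sum in FLM_G was Cdh1 (E-cadherin), a cell adhesion molecule that some macrophages also carry, at 26.8, 24.3 and 24.6. Ocln, a junction protein, followed at 0.343, 0.353 and 0.290 in FLM_G and was at 0 in the other cultures. The part of other cells in Krt19, Krt79 and Plet1 was not tested. The 6 lung epithelial markers, which include 4 surfactant genes, were at 0 in every library.

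Kcnip4 (ENSMUSG00000029088, chromosome 5, 48389502 to 49524907, - strand) encodes a calcium-binding subunit of neuronal Kv4 potassium channels. It was at 0.116, 0.173 and 0.132 in FLM_G, on about 6, 10 and 8 reads, and listed at 0 in FLM_M and BMM. It ranked 14086th in FLM_G, lowest of the 10. The deposited count table went the other way for this gene, with 8, 8 and 10 counts in FLM_G, 23, 21 and 30 in FLM_M and 12, 22 and 18 in BMM. Pacrgl, which overlaps Kcnip4 on the opposite strand, was at 0.737 to 1.00 FPKM as deposited in the 9 libraries (named after its values were seen). Its own counts were 0 to 5 per library. Whether the counts listed for Kcnip4 were reads of Pacrgl was not tested. Of 8 other KChIP and Kv4 channel genes none passed the filter and 4 were at 0 in all 9 libraries. The highest value among the 8 was 0.158, of Dpp6 in an FLM_M library.

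Summed markers of 2 other blood cell types had higher levels in FLM_G. The 8 dendritic cell markers summed to 74.2 to 78.5 in FLM_G, 0.451 to 0.617 in FLM_M and 0.424 to 0.481 in BMM. Ccl17, a chemokine, made up most of this at 73.6, 72.6 and 69.6. Clec9a, a receptor of dendritic cells, was at 2.99, 2.29 and 2.07 in FLM_G and averaged 0.108 in FLM_M and 0.0515 in BMM, and Ccl22, another chemokine, was at 1.84, 2.42 and 2.50 in FLM_G and averaged 0.0723 in FLM_M and 0.210 in BMM. In all 3 of these genes each FLM_G library lay above the other 6, while Flt3, Xcr1 and Cd209a were at 0 in FLM_G. Zbtb46 and Ccr7 were not highest in FLM_G either. Zbtb46 averaged 0.0659 in FLM_G, 0.331 in FLM_M and 0.0137 in BMM, and Ccr7 averaged 0.0267, 0 and 0.139 in the same cultures. The 8 granulocyte markers summed to 49.9 to 57.1 in FLM_G, 9.81 to 12.6 in FLM_M and 5.86 to 6.33 in BMM. S100a8 made up most of this at 49.7, 53.4 and 56.6, with Ly6g, S100a9, Elane, Mpo and Camp at 0 in FLM_G. Csf3r went the other way, at a mean of 0.294 in FLM_G, 0.343 in FLM_M and 3.01 in BMM. Stromal, erythroid and lymphoid lists stayed under 0.3 in every library. The part of such cells in the levels of the 10 genes was not tested.

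To set the 10 genes among all genes, those with a mean of at least 20 in FLM_G and no more than 0.5 in each of the other 6 libraries were listed. There were 29, and 4 of the 10 were among them: by level in FLM_G Car4 held place 2, Plet1 place 3, Nov place 5 and Rbp4 place 13. Ear2, a ribonuclease of eosinophils and alveolar macrophages whose close copies may have shared reads with it, led at 795 ± 47.2, and F7, coagulation factor VII, held place 4 at 217 ± 7.74. The next were Wfdc21 at 99.3, Il1a (interleukin 1 alpha) at 97.8, Ccl17 at 71.9 and Lipf, a gastric lipase gene, at 71.3 (the genes other than Ear2, F7 and the 4 members were named after their values were seen). Mcemp1 missed the list through its BMM level, Slc7a2 through both other cultures and Slc39a2 through its FLM_G level. With a mean of at least 5 in FLM_G the list held 91 genes and 6 of the 10.

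**Figure D2:**
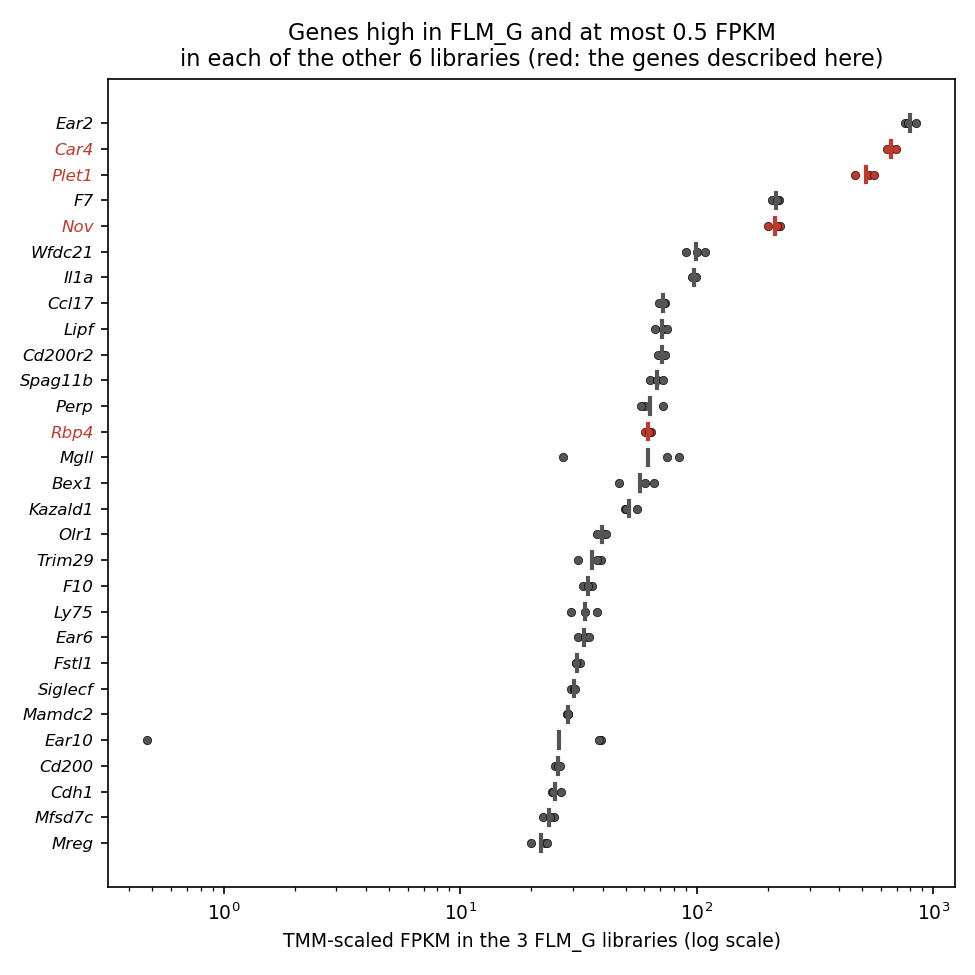
The 29 genes with a mean of at least 20 scaled FPKM in FLM_G and at most 0.5 in each FLM_M and BMM library, ordered by FLM_G mean; points are the 3 FLM_G libraries and the tick is their mean, on a log axis. Car4, Plet1, Nov and Rbp4 (red) stand at 665.5, 521, 214 and 62.4; Ear10 has 1 library at 0.474 while the others are at 39.4 and 38.8.

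Likeness of pattern was measured by Pearson correlation over the 9 libraries with the mean standardized profile of the 10 genes, among genes with at least 20 in FLM_G. The 9 libraries fall into 3 cultures, so such a correlation mostly describes the step between FLM_G and the rest. The 6 most alike were Trim29 (r = 0.9996), Hist2h2aa2, Lrpap1, Mertk, Gla and Slc6a12 (r = 0.998). They need not be near 0 elsewhere: Mertk, a receptor for the uptake of dying cells, was at 64.0 ± 1.603 in FLM_G, 10.5 ± 0.717 in FLM_M and 9.11 ± 0.394 in BMM. Of the 10 genes themselves, Slc7a2 was the least alike at 0.844 and the other 9 reached 0.986 to 0.998. Each of the 10 is part of that profile and was chosen for its levels, so high values were fixed in advance.

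Other genes of alveolar macrophages were then counted in a limma fit over all 11952 genes that passed the filter, with calls at a Benjamini-Hochberg adjusted p under 0.05. In that fit 35.5% of all genes were higher and 35.1% lower in FLM_G than in FLM_M, and 33.8% were higher and 34.1% lower than in BMM. Without scaling the split was 2218 higher and 7075 lower against FLM_M, and 2081 higher and 6775 lower against BMM. Both comparisons use the same 3 FLM_G libraries. Of 24 listed genes 22 were tested and all 22 were higher in FLM_G in both comparisons, but 9 of them passed the filter only through FLM_G and had to differ. The 13 that passed it without FLM_G were all higher in both comparisons, with median log2 differences of 3.15 against FLM_M and 4.36 against BMM. Over all 11516 genes that passed without FLM_G the medians were -0.02 in each, and 33.4% and 31.7% were higher. The list was drawn up with earlier results of these data known, so its direction is not independent evidence.

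Chil3, a chitinase-like secreted protein, had the largest difference. Its level was 1725 ± 62.1 in FLM_G, listed at 0 in FLM_M and 0.499 ± 0.153 in BMM, and it was among the 9 genes that passed the filter only through FLM_G. Ctsk, a lysosomal protease best known from osteoclasts, was at 1078 ± 5.49 in FLM_G, 1.34 ± 0.194 in FLM_M and 1.62 ± 0.256 in BMM. Siglecf, a surface lectin used to sort alveolar macrophages, was at 30.2 ± 0.538 in FLM_G, 0.140 ± 0.0292 in FLM_M and 0.168 ± 0.0408 in BMM. Pparg was well above 0 in all cultures, at 67.9 ± 4.3 in FLM_G, 9.80 ± 0.173 in FLM_M and 10.3 ± 0.533 in BMM (Siglecf and Pparg were named after their values were seen). Ear10 and Cidec did not pass the filter: Ear10 was at 39.4, 38.8 and 0.474 in FLM_G, and Cidec at 0.575, 0.783 and 0.901, and both were listed at 0 elsewhere.

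**Figure D3:**
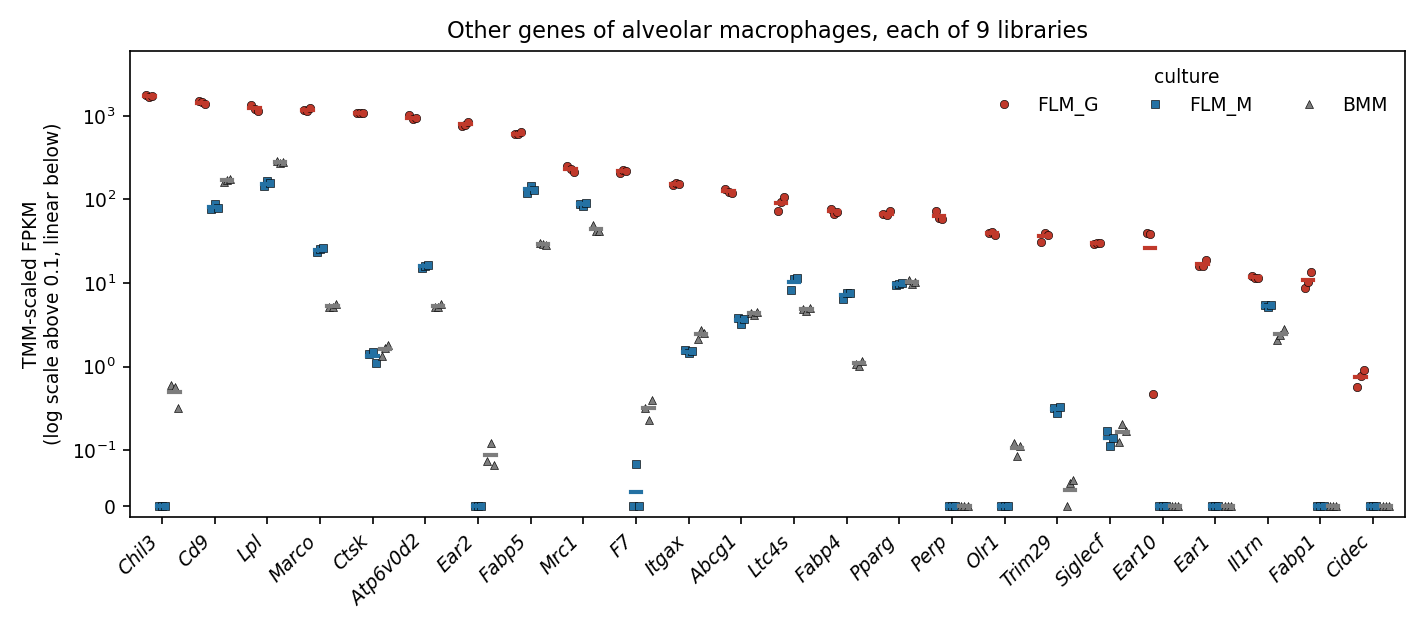
Level of 24 other genes of alveolar macrophages (TMM-scaled FPKM, log scale above 0.1, linear below) in the 3 libraries of FLM_G, FLM_M and BMM, with a line at each mean. FLM_G lies highest in each of the 24 genes, but Lpl, Fabp5, Mrc1 and Pparg are also well above 0 in FLM_M and BMM, whereas Ear1, Perp and Fabp1 are at 0 there.

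Genes of the GM-CSF receptor, its signalling and the factors around it formed a list of 18, of which 17 were tested. In FLM_G 16 were higher and none lower than in FLM_M, and 13 were higher and 1 lower than in BMM. Among the higher ones Cish and Socs2 passed the filter only through FLM_G and had to differ. Without scaling between libraries these counts were 13 and 1 against FLM_M and 13 and 4 against BMM. Of the 15 that passed the filter without FLM_G, 14 were higher and none lower than in FLM_M, and 11 were higher and 1 lower than in BMM. Over all genes that passed without FLM_G, 33.4% and 31.7% were higher. This list, too, was drawn up with earlier results of these data known. Csf2rb was at 201 ± 12.5 in FLM_G, 26.6 ± 4.05 in FLM_M and 23.1 ± 0.352 in BMM, and Csf2ra at 408 ± 41.3, 66.2 ± 4.59 and 129 ± 13.6 in the same cultures. Klf4 and Bhlhe40, both transcription factors of macrophages, differed most from FLM_M: Klf4 was at 60.8 ± 3.01 in FLM_G, 4.55 ± 0.382 in FLM_M and 6.18 ± 0.460 in BMM. The log2 difference of Bhlhe40 was 2.97 (SE 0.04, limma, adjusted p = 7.82e-11) against FLM_M and 3.00 (SE 0.04, limma, adjusted p = 9.41e-11) against BMM.

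The families and pathways of the 10 genes did not, as lists, share their direction. The pool of 8 lists, GM-CSF genes included, held 131 genes, 62 of them tested. Of these 34 were higher and 17 lower in FLM_G than in FLM_M, and 29 were higher and 22 lower than in BMM. The GM-CSF genes alone gave 16 of the higher and none of the lower against FLM_M, and 13 and 1 against BMM. In the pool 4 genes passed the filter only through FLM_G and so had to be higher in both. Some of the lower ones passed it only through FLM_M or only through BMM, as given below. Over all genes tested 70.6% and 68.0% were called in these comparisons, 35.5% and 33.8% as higher. Without scaling, which shifts the median log2 difference of all genes by -0.39 against FLM_M and by -0.34 against BMM, 25 genes of the pool were higher and 29 lower, and 26 were higher and 33 lower. Of the genes named in the family lists below, only Dhrs3 changed direction under another scaling.

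Of the 15 other carbonic anhydrases, 5 were tested. In FLM_G 2 were higher and 3 lower than in FLM_M, and 4 were higher and 1 lower than in BMM. Of these Car2 passed the filter only through FLM_G and had to be higher. Car7, called lower than in FLM_M, passed it only through FLM_M, so the filter favoured that call (named after its values were seen). Car5b, a mitochondrial enzyme, was at 13.4 ± 0.527 in FLM_G, 3.69 ± 0.0325 in FLM_M and 3.12 ± 0.151 in BMM, and was called higher in both. Car13, a cytosolic enzyme, was at 22.1 ± 1.81 in FLM_G, 29.4 ± 2.22 in FLM_M and 13.1 ± 0.838 in BMM, so that FLM_G lay between the others. In FLM_G no other carbonic anhydrase exceeded 23.4, against at least 639 for Car4.

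Among 20 other keratins, 16 were listed at 0 in all 9 libraries and 1, Krt10, was tested. Krt10 was lower in FLM_G, at 0.242 ± 0.115, than in FLM_M at 1.11 ± 0.0195 and BMM at 0.726 ± 0.150, but it passed the filter only through FLM_M and so had to differ from that culture. Krt78, a neighbour of Krt79, was at 0.262, 0.186 and 0.301 in FLM_G and at 0 in the other cultures, as low as Krt79 itself (both named after their values were seen).

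Of 25 retinoid genes 9 were tested: 5 were higher and 2 lower in FLM_G than in FLM_M, and 4 higher and 4 lower than in BMM. Without scaling these were 4 and 5, and 3 and 5. Stra6l, an importer of retinol, was at 6.48 ± 0.188 in FLM_G, 0.0466 ± 0.0106 in FLM_M and 0.536 ± 0.0765 in BMM; it passed the filter only through FLM_G. The retinoid receptor genes Rara, at 19.8 ± 2.43, 4.35 ± 0.807 and 4.40 ± 0.518, and Rxra, at 42.8 ± 2.89, 17.0 ± 1.45 and 11.9 ± 0.127 in the same cultures, were called higher in both comparisons. Dhrs9, a retinol dehydrogenase gene, went the other way, at 0.394 ± 0.0835 in FLM_G, 83.6 ± 7.44 in FLM_M and 8.77 ± 0.704 in BMM. Dhrs3 was not called, at 64.9 ± 3.49, 62.4 ± 5.25 and 66.5 ± 3.72, and without scaling was lower in FLM_G in both. Aldh1a2, which makes retinoic acid, was at 1.05, 1.24 and 0.968 in FLM_G and at 0 in the others, just short of the filter (named after its values were seen).

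Zinc genes numbered 26, of which 20 were tested. In FLM_G 8 were higher and 6 lower than in FLM_M, and 6 were higher and 9 lower than in BMM. Without scaling 4 were higher and 12 lower, and 4 were higher and 14 lower. Slc39a4, listed at 0 in FLM_G, passed the filter only through BMM and so had to be lower than in that culture (named after its values were seen). Of the metallothioneins, which bind zinc, Mt1 and Mt2 were higher and Mt3 was listed at 0 in all libraries. Mt1 was at 1066 ± 221 in FLM_G, 165 ± 22.1 in FLM_M and 261 ± 8.26 in BMM. Mt2 was at 404 ± 35.2 in FLM_G, 11.3 ± 2.62 in FLM_M and 49.6 ± 3.13 in BMM, a log2 difference from FLM_M of 5.06 (SE 0.14, limma, adjusted p = 3.43e-09). Some other zinc transporters fell: Slc30a4, an exporter, was at 0.373 ± 0.112, 6.75 ± 0.502 and 3.45 ± 0.302, and Slc39a10, an importer, at 1.61 ± 0.413, 5.04 ± 0.487 and 4.68 ± 0.175 in the same cultures.

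Beside Slc7a2, 14 genes of cationic amino acid transport and use were listed and 10 tested. In FLM_G 3 were higher and 5 lower than in FLM_M, and 2 were higher and 6 lower than in BMM; without scaling 2 were higher and 7 lower, and 2 were higher and 8 lower. Slc7a1, the widely expressed arginine importer CAT1, was at 3.40 ± 0.209 in FLM_G, 6.83 ± 0.764 in FLM_M and 7.64 ± 0.178 in BMM. Its log2 difference was -0.83 (SE 0.08, limma, adjusted p = 1.25e-05) against FLM_M. Slc3a2, the heavy chain of several amino acid exchangers, was also lower, at 51.6 ± 15.0 in FLM_G, 131 ± 41.5 in FLM_M and 137 ± 3.31 in BMM. Ass1, which regenerates arginine from citrulline, was higher, at 92.7 ± 5.13, 30.4 ± 0.573 and 11.1 ± 0.602, as was Odc1, the first enzyme of polyamine synthesis, at 82.7 ± 3.78, 34.5 ± 3.20 and 41.9 ± 1.35 in the same cultures.

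**Figure D4:**
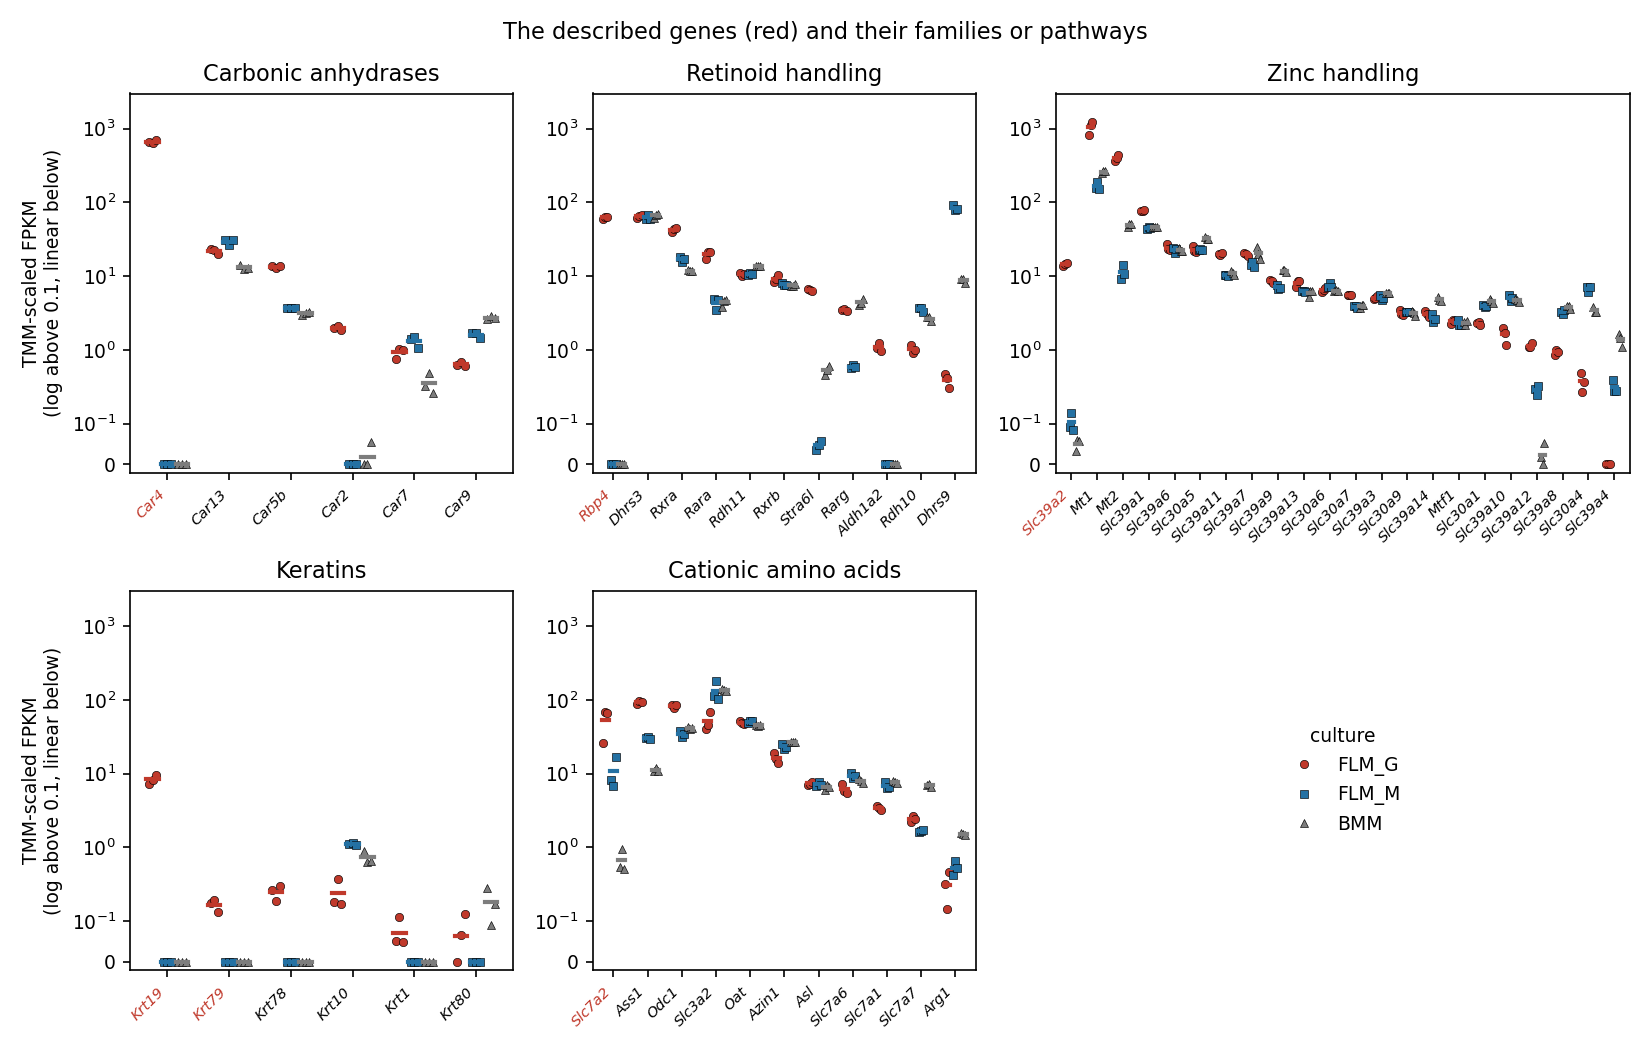
Level (TMM-scaled FPKM, log scale above 0.1, linear below) of Car4, Rbp4, Slc39a2, Krt19 and Krt79, and Slc7a2 (red names) beside the genes of their families or pathways that reached 1 (keratins: 0.1) in any library, in FLM_G, FLM_M and BMM, with a line at each mean. Car4 exceeds every other carbonic anhydrase in FLM_G, Dhrs9 is lowest in FLM_G, and Mt1 and Mt2 are highest in FLM_G.

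Position had played no part in the choice of the 10 genes, which lie on 7 chromosomes, so the 3 nearest protein-coding genes on each side were examined. Of these 60 neighbours 26 were tested, and 15 were higher and 8 lower in FLM_G than in FLM_M, while 15 were higher and 7 lower than in BMM. Without scaling 9 were higher and 13 lower, and 10 were higher and 9 lower. A call with a log2 difference of at least 1 was made for 11 of the 26 (42.3%) against FLM_M and 8 of the 26 (30.8%) against BMM, where 21.4% and 18.8% of all genes tested had one. Of these Ffar4 and Ear6 passed the filter only through FLM_G and had to be called. Among genes that passed it without FLM_G, 9 of 24 neighbours (37.5%) had such a call against FLM_M and 6 of 24 (25.0%) against BMM, beside 19.4% and 16.7% of all genes. The 9 still include Pdgfrl, which passed the filter only through FLM_M, so that the filter favoured its call. They also include Mettl17, which overlaps Slc39a2 on the same strand and can share reads with it.

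The 3 neighbours with the largest differences from FLM_M were Ear6, Fcor and Ffar4. Ffar4, a receptor for long-chain fatty acids, ends 2.37 kb from the 3′ end of Rbp4 on the opposite strand. It was at 13.9, 15.9 and 15.1 in FLM_G and listed at 0 in the other 6 libraries, as Rbp4 was. Fcor, a small regulator of FOXO1 known from fat, lies 1.93 kb beyond the 3′ end of Mcemp1, also on the opposite strand. It was at 44.9 ± 2.61 in FLM_G, 1.02 ± 0.155 in FLM_M and 1.22 ± 0.284 in BMM, a log2 difference of 4.51 (SE 0.10, limma, adjusted p = 9.54e-10) against FLM_M. Ear6, a ribonuclease of the eosinophil family with close copies, lies 38.2 kb from Slc39a2 and was at 31.4, 33.9 and 34.9 in FLM_G and listed at 0 elsewhere.

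The other neighbours with such a call against FLM_M were above 0 in at least 1 further culture. Mettl17, which overlaps Slc39a2, was at 6.65 ± 0.0995 in FLM_G, 2.82 ± 0.189 in FLM_M and 2.86 ± 0.393 in BMM. Near Plet1, Pts, an enzyme of tetrahydrobiopterin synthesis, was at 37.4 ± 2.76, 14.2 ± 1.497 and 14.5 ± 0.514, and Il18, an inflammatory cytokine, at 35.4 ± 0.409, 16.3 ± 2.50 and 9.13 ± 1.17 in the same cultures. Myof, a membrane repair protein gene 73.1 kb from Rbp4, was at 105 ± 15.2 in FLM_G, 15.6 ± 1.84 in FLM_M and 32.1 ± 0.775 in BMM. Cep55 near Rbp4, Dscc1 near Nov and Mtus1 near Slc7a2 were lower in FLM_G in both comparisons. Pdgfrl, 3.90 kb from Slc7a2, was at 0.0757 ± 0.0671 in FLM_G, 2.95 ± 0.0583 in FLM_M and 0.0332 ± 0.0113 in BMM and was called in FLM_G against FLM_M alone of the 2 comparisons, having passed the filter only through FLM_M. Around Krt19 and Krt79 the neighbours were other keratins, of which Krt78 had the highest FLM_G mean.

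**Figure D5:**
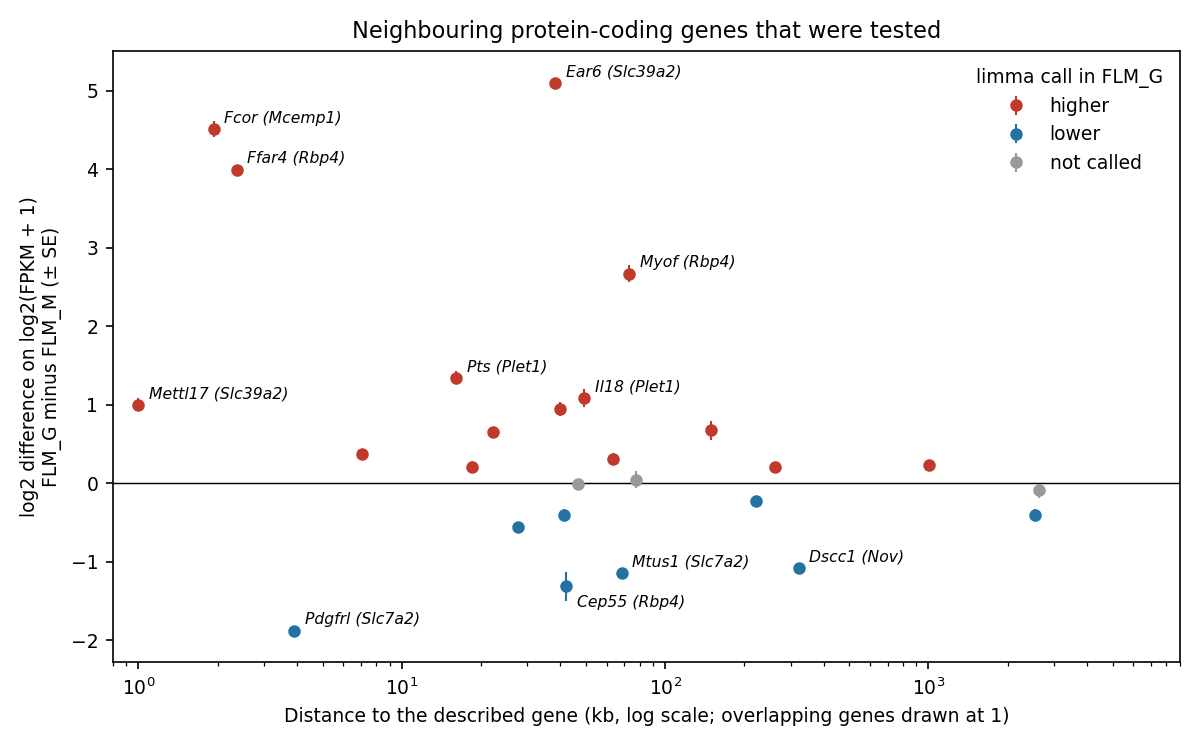
Log2 difference of FLM_G minus FLM_M (on log2(FPKM + 1), with its SE) for the 26 tested neighbours against their distance from the gene they neighbour (kb, log axis). Fcor, Ffar4 and Ear6 stand above the rest at 4.51, 4.00 and 5.10, and neighbours farther than 100 kb lie between -1.08 and 0.68.

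The deposited count table, which held 782400 to 1170813 counts per library, gave few counts for genes with high FPKM. Car4 had 318, 247 and 108 counts in FLM_G and none in the other 6 libraries, and Slc7a2 had 118, 111 and 23 in FLM_G, 52, 38 and 42 in FLM_M and 2, 0 and 2 in BMM. Krt19 had 5 and Krt79 had 3 counts in FLM_G in all. For Plet1 the count table held 466, 596 and 407 in FLM_G, or 1.71% to 2.65% of the reads that its FPKM imply. Summed over the libraries of each culture, 9 of the 10 genes had more counts in FLM_G than in FLM_M and in BMM, and Kcnip4 had fewer. The choice of these genes on their levels favoured that direction, and the share over all genes of the count table is not given here. It did not hold library by library for Slc7a2, where FLM_G replicate 3, at 23, lay below every FLM_M library. The 3 counts of Krt79 were all in a single FLM_G library.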

How the data were processed

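Per the labels' protocols, stranded TruSeq libraries of poly(A) RNA were read from 1 end (101 cycles, HiSeq2500). The submitters' processing notes name HISAT2, StringTie, cutadapt, FastQC, bcl2fastq and DESeq2, and GRCm38 and mm10 as builds, without saying what made each table. The authors deposited FPKM and raw counts for 46078 genes. FPKM were the main measure, following an earlier account of these data in which opposite-strand reads dominated the counts. Among genes opposite the members, Plet1os had 30353 counts in FLM_G at no more than 0.333 FPKM as deposited. Gm26584 followed with 367 counts at 0 FPKM, and the others had few counts or none. The test, limma 3.58.1 (trend, 6 residual degrees of freedom, in R 4.3.3), was run on log2(TMM-scaled FPKM + 1) of genes that reached 1 FPKM in 3 or more libraries. The step was tested on simulated data in which few genes changed. Most tested genes were called in the real data, so that run did not cover scaling under such wide differences. edgeR 4.0.16 and DESeq2 1.42.0 on the counts were alternatives. Members and lists were chosen with earlier results of these data known. Genes were named by rule: all members; up to 4 called genes per list with the largest difference from FLM_M, no overlap of groups and a mean of at least 5, plus uncalled ones of at least 50; neighbours called with a log2 difference of at least 1; and the 6 most alike in pattern. Other names are marked. Gene positions are from GENCODE M21 (GRCm38).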

Additional observations from a re-analysis of the deposited data

Results flagged for a closer look

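Signal appeared in the count table for genes that the comparisons above did not use. Plet1os, the antisense gene of Plet1, had 8674, 10625 and 11054 counts in the FLM_G libraries, against a sum of 1 count in FLM_M and 2 in BMM, while its FPKM as deposited did not exceed 0.333. These counts equal 46.5% to 47.4% of the reads that the FPKM of Plet1 imply. Gm26584, a noncoding gene opposite the start of Slc7a2 (chromosome 8, 40862395 to 40865647), had 118, 124 and 125 counts in FLM_G, against sums of 151 in FLM_M and 16 in BMM, and was listed at 0 FPKM in all 9 libraries. Whether the count table used the opposite strand setting was not tested.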

How the results depend on the processing

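All 10 genes had every FLM_G library above the other 6 under each alternative run on the FPKM. For all genes, the other alveolar genes, the pooled relatives and the neighbours, the total numbers of calls on the FPKM stayed within 1.5 times under other scalings, filters, the pseudocount of 0.1, the 6 libraries compared alone and each library left out. The exception was that without any 1 of the FLM_G libraries the other alveolar genes numbered 13, all higher (range 13 to 22 in both comparisons), since only 13 then pass the filter. Single family lists and member means were less steady. Of these results 12 moved, by more than 1.5 times or more than the SD of a mean, with 1 library left out, and 35 in the other settings. The split by direction moved more: without scaling as given above, and with a filter of 5 FPKM neighbours were 13 higher and 3 lower against FLM_M and 13 and 4 against BMM. On the count table edgeR called 2855 genes against FLM_M and 2458 against BMM (8441 and 8125 on the FPKM), and DESeq2 2631 and 2201. Relatives called were 24 and 22 with edgeR and 24 and 23 with DESeq2. Neighbours called were 4 and 7 with edgeR and 6 and 8 with DESeq2. These directions reversed: Car13 against FLM_M, at 0.29 with edgeR and 0.26 with DESeq2; Dhrs3 against FLM_M, at -0.42 without scaling; Dhrs3 against BMM, at -0.088 to 0.022 with 1 library left out (above 0 without FLM_G replicate 1), 0.34 with edgeR and 0.30 with DESeq2; Il18 against FLM_M, at -0.045, and Dscc1 against BMM, at 0.34, with DESeq2. A call was lost with its direction kept in 19 further results of a named gene in 1 setting, none of them with a library left out. The causes were not tested. Replicate numbers did not pair the libraries (correlations of same-numbered deviations -0.077 to 0.090); with the replicate number as a block 8386 genes were called against FLM_M and 8018 against BMM, relatives were 34 higher and 15 lower, and 29 and 21, neighbours 15 and 8, and 16 and 7, and no call of a named gene changed. Unscaled, member means in FLM_G were lower (Car4 at 539). Levels under about 10 reads, as for Krt79 and Kcnip4, limit what can be said of them.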

Other observations

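Among the 29 genes that were high in FLM_G and at most 0.5 scaled FPKM in each other library, the following were named after their values were seen. F10, coagulation factor X, averaged 34.6 ± 1.501 in FLM_G, was listed at 0 in FLM_M and averaged 0.112 in BMM, beside F7, whose product activates it, at 217 ± 7.74 in FLM_G. Cd200, a surface ligand that restrains macrophages, averaged 25.9 ± 0.617 in FLM_G, 0 in FLM_M and 0.113 in BMM, and Cd200r2, of the family of its receptor, averaged 71.1 ± 2.50, 0.432 and 0.0924 in the same cultures. Fstl1, a secreted glycoprotein that binds TGF-beta family ligands, averaged 31.2 ± 0.726 in FLM_G, 0 in FLM_M and 0.0095 in BMM.

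Single FLM_G libraries stood apart in 2 of the 29 genes, and not the same library in each. Mgll, a monoglyceride lipase, was at 75.0, 27.2 and 83.9 in FLM_G replicates 1, 2 and 3, and Ear10 at 39.4, 38.8 and 0.474, whereas Slc7a2 was lowest in replicate 1. Whether these low values were failed estimates was not tested.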
